A study of Rattus norvegicus with 9 samples.

Results

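Claudins and their partners at the tight junction were followed in dorsal root ganglion (DRG) tissue of rats after nerve injury. The 9 genes were Cldn1, Cldn3, Cldn4, Cldn5, Cldn11, Cldn12, Cldn19, Ocln and Tjp1, taken by gene symbol from the 20194 genes in the deposited expression table. Of these, 8 were listed as known members of the tight junction, and Cldn4 was included because it rose from near 0 after injury. Cldn4 was thus chosen by its measured levels in injured and sham ganglia, and its difference from sham is given as a description without a test.

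RNA-Seq was run on 9 libraries of DRG tissue from adult male Sprague Dawley rats 8 to 10 weeks old, 3 libraries in each of 3 groups. The sham group had surgery without nerve injury. The SNI group had spared nerve injury, a model of neuropathic pain in which branches of the sciatic nerve are cut and one branch is left intact. The SNI + G15 group had SNI and then intrathecal G15, an antagonist of the G protein-coupled oestrogen receptor GPER, given through a catheter implanted on day 5 and followed for 24 h, with drugs dissolved in 2% DMSO per the labels, whereas the study's methods give another concentration. The labels title the sham and SNI libraries as G15 controls, and the same catheter day, 24 h and 2% DMSO are recorded for all 9 libraries. Beyond these shared entries, whether sham and SNI rats received a catheter or vehicle was not stated in the sources used here. Estimated counts summed to 18484557 to 18756736 per library. Myelinating Schwann cell, satellite glia and sensory neuron markers were all detected in these ganglia, and markers of injured sensory neurons were higher in SNI than in sham for 8 of 8 genes, 1 of which reached 1 FPKM in no sham library. The tissue was whole ganglion, so fewer cells of a type and less RNA per cell cannot be told apart.

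Tight junctions seal the space between neighbouring cells. Claudins are the membrane proteins that form the sealing strands and, in some cases, pores for ions, occludin joins them in the strand, and zonula occludens proteins anchor the strand to the actin cytoskeleton inside the cell. In nerve and ganglion, such junctions are known from the endothelium of blood vessels, from the perineurial sheath, and from the folds of the myelin sheath itself, where the junction lies between membranes of one cell.

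Of the 6 members that fell between sham and SNI, the promoters of 4 are shown, Cldn1, Cldn3, Cldn5 and Cldn11. They were kept because their windows end at the annotated 5′ end of the gene, which those of Cldn19 and Ocln do not. Each line gives the 250 bases before the annotated start in RefSeq, build GRCr8, 5′ to 3′ on the strand of the gene. Capitals mark a CCAAT box (CCAAT, or ATTGG on the opposite strand) or a GC box (GGGCGG, or CCGCCC on the opposite strand). RefSeq promoter entries were matched for 8 of the 9 members, all but Cldn4, and only in these 4 did the window end at the annotated 5′ end of the gene.
Cldn1, chr11:87926126-87926375, plus strand: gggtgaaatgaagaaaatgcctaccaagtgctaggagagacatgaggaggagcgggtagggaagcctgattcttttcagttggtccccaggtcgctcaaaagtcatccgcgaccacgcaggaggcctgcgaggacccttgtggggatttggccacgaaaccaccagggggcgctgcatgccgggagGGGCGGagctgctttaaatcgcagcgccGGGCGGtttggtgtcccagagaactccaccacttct
Cldn3, chr12:27346548-27346797, minus strand: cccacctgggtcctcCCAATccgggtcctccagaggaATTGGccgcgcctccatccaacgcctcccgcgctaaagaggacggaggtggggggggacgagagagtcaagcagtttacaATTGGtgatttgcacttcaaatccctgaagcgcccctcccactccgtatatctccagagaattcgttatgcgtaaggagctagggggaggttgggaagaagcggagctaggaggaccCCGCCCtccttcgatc
Cldn5, chr11:95718599-95718848, minus strand: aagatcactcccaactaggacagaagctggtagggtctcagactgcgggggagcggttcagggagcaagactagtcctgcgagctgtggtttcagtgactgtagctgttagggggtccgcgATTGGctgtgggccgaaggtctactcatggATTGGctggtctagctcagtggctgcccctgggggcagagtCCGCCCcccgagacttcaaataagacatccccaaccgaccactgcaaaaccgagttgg
Cldn11, chr2:114149540-114149789, minus strand: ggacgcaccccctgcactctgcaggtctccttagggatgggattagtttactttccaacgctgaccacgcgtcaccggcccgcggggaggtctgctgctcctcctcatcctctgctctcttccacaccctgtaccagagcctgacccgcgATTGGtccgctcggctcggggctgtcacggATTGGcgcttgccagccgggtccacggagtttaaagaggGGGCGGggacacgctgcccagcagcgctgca

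Each of the 4 windows held a GC box, and Cldn1 held 2. Of the members that fell but are not shown, Cldn19 had 3 GC boxes in its window and Ocln had no GC box. The Cldn3 window held 3 CCAAT boxes, and those of Cldn5 and Cldn11 held 2 each, whereas the Cldn1 window held none. Among 33465 promoter windows of the same length, 34.0% held a CCAAT box and 30.5% a GC box on either strand. A TATA box (TATAAA), a SOX core (ACAAAG), an AP-1 site (TGANTCA) and an ETS core (GGAAGT) were also searched on both strands, and none of their letters occurred in the 4 windows. The shares of all windows with these motifs were 12.9%, 16.3%, 6.34% and 19.2%. GC content was 59.2% for Cldn1, 59.2% for Cldn3, 58.4% for Cldn5 and 64.8% for Cldn11, against a median of 51.2% over all windows. The matches describe letters in the window and do not locate a bound factor.

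Levels of different genes were compared in FPKM (fragments per kilobase of transcript, scaled to library size), which corrects for gene length. In sham ganglia, Cldn19 had the highest level of the 9 genes, with a mean of 46.9 FPKM ± 2.20 (SD, n = 3), followed by Cldn5 at 28.0 ± 2.34 and Cldn11 at 20.0 ± 1.01. Tjp1 stood at 10.3 ± 0.421, Cldn1 at 7.09 ± 0.331, Cldn12 at 5.51 ± 0.0954, Cldn3 at 2.64 ± 0.523, Ocln at 1.05 ± 0.205 and Cldn4 at 0.14 ± 0.0173 FPKM. No pair of neighbours in this order overlapped between libraries. The plot of the 9 genes by library shows every value.

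**Figure D1:**
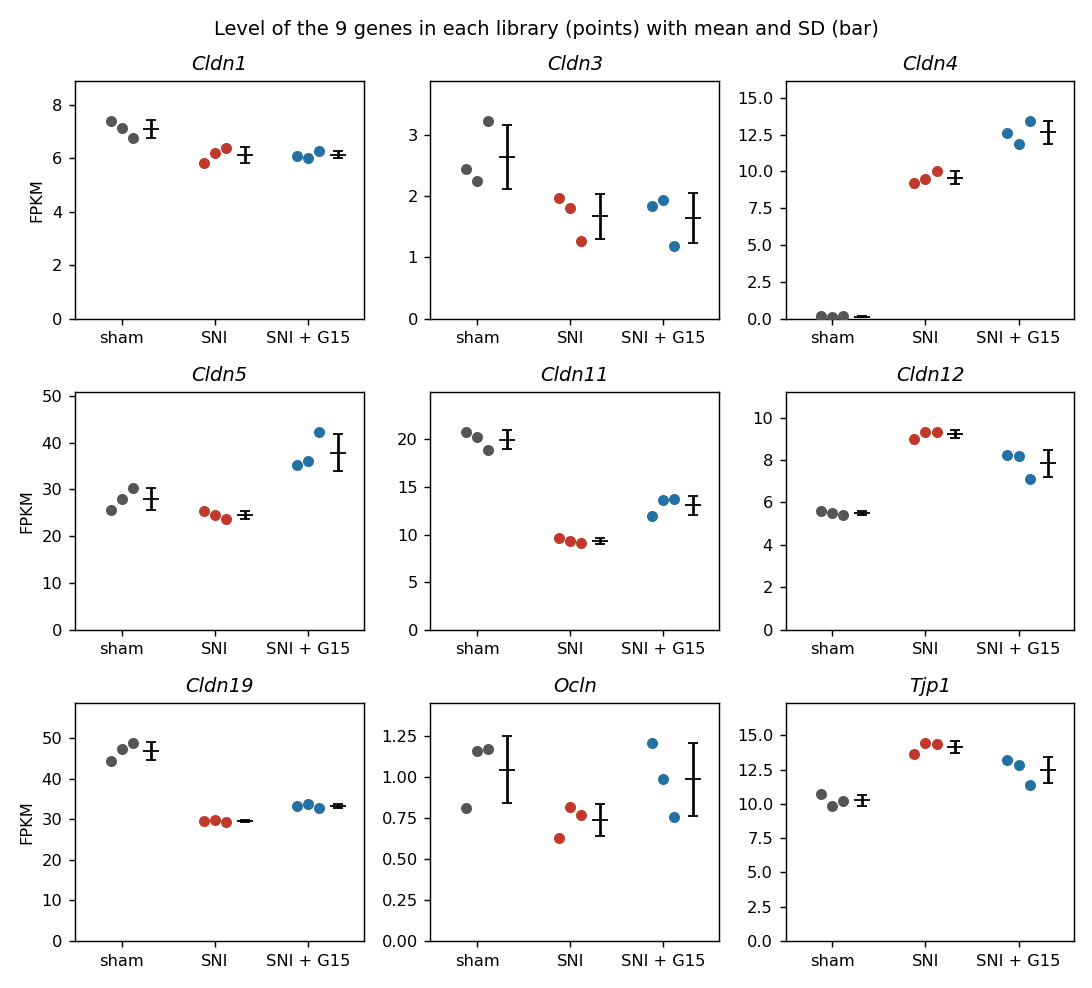
Level of each of the 9 genes in FPKM (vertical axis, starting at 0 in every panel) in the 3 sham, 3 SNI and 3 SNI + G15 libraries (points), with the mean and SD of each group as a bar beside them. Cldn4 lay between 0.12 and 0.15 FPKM in sham and between 9.19 and 10.03 FPKM in SNI, whereas Cldn11 and Cldn19 were lower in every SNI library than in every sham library.

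The order of levels differed between groups. In SNI ganglia, Cldn19 and Cldn5 again had the highest levels, followed by Tjp1. Cldn4, Cldn11 and Cldn12 followed at means of 9.57, 9.33 and 9.22 FPKM, and each overlapped its neighbour between libraries. In SNI + G15 ganglia, Cldn5 was the highest at 37.8 FPKM ± 3.91 (SD, n = 3), above Cldn19 at 33.2 ± 0.463, with no overlap between the libraries of these 2 genes. Cldn11, Cldn4 and Tjp1 overlapped in SNI + G15 at means of 13.1, 12.7 and 12.5 FPKM, and Cldn3 overlapped Ocln.

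The first comparison was between SNI and sham and asked how injured ganglia without G15 differed from sham ganglia. All tests below are edgeR's quasi-likelihood test on estimated counts, with Benjamini-Hochberg adjustment over the 14305 genes that reached 1 FPKM in at least 1 library, and a gene was called at an adjusted p below 0.05. Over these genes, 45.7% were called between SNI and sham, 23.3% higher and 22.4% lower. Setting Cldn4 aside, 8 of 8 members were called, 2 higher and 6 lower. Their median log2 fold change was -0.41, against 0.001 over all genes tested. FPKM values of the 2 groups did not overlap for 7 of the 8, a state shared by 53.9% of all genes tested. The largest fall was that of Cldn11, and the largest rise that of Cldn12.

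Cldn19 and Cldn11 are the claudins known from myelin, Cldn19 in Schwann cells and Cldn11 in the myelin of oligodendrocytes, with further expression of Cldn11 in meningeal and perineurial barrier cells. Cldn11 measured 20.79, 20.29 and 18.84 FPKM in the sham libraries and 9.65, 9.28 and 9.07 FPKM in the SNI libraries. The 3 SNI libraries lay at less than the level of any sham library, and the gene fell by 1.13 on the log2 scale (SE 0.0583, adjusted p = 1.25e-07, edgeR), a decrease of 54.2%. Cldn19 measured 44.47, 47.31 and 48.81 FPKM in sham and 29.55, 29.79 and 29.28 FPKM in SNI. The SNI libraries were close to one another and all below sham, with a log2 fold change of -0.68 (SE 0.0449, adjusted p = 7.77e-07, edgeR).

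Markers of myelinating Schwann cells moved in the same direction as these genes. Of 12 such markers, 0 were higher and 9 lower in SNI. The list had a median log2 fold change of -0.76 against 0.001 over all genes, and its summed level was 3180 to 3240 FPKM in SNI against 5586 to 5705 FPKM in sham. Among them, Prx, a scaffold of the Schwann cell, fell by 0.80 on the log2 scale. Of 10 markers of perineurial and arachnoid barrier cells tested, 6 were lower and 1 was higher, and 4 of the 6 reached 1 FPKM in no SNI library. The summed level of this list went the other way, at 202 to 202.3 FPKM in SNI against 182.3 to 190.2 FPKM in sham. Crabp2, of the same list, measured 16.52 to 18.86 FPKM in sham and 36.43 to 42.39 FPKM in SNI. The organic anion transporters Slc22a6 and Slc22a8 lay at 1.43 to 1.59 and 1.60 to 1.94 FPKM in sham and at 0.16 to 0.32 and 0.25 to 0.40 FPKM in SNI, whereas the glucose transporter Slc2a1, at 38.13 to 39.18 FPKM in sham and 38.43 to 39.05 FPKM in SNI, was not called. Of 5 oligodendrocyte markers tested, 1 was higher and 2 lower, and one of the list, Mbp, is also a Schwann cell marker. None of the markers in these lists was at 0 in all libraries. The part of cell composition in the levels of Cldn11 and Cldn19 was not tested.

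Cldn5 is the dominant claudin of the blood-brain barrier endothelium. It measured 25.67, 27.94 and 30.35 FPKM in sham and 25.29, 24.48 and 23.62 FPKM in SNI. The highest SNI library lay just below the lowest sham library, and the log2 fold change was -0.22 (SE 0.0661, adjusted p = 0.018, edgeR). The call was lost without sham 3 (log2 fold change -0.16, adjusted p = 0.0685), without SNI 2 (-0.22, adjusted p = 0.052) and without SNI 3 (-0.20, adjusted p = 0.0637). Of 15 endothelial markers tested, 3 were higher and 0 lower in SNI, and their summed level was 87.92 to 89.84 FPKM against 79.94 to 82.12 FPKM in sham. The vascular endothelial cadherin Cdh5 and the adhesion molecule Pecam1 were not called in this comparison.

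Cldn1, known from the perineurium and from epidermis, measured 7.40, 7.12 and 6.74 FPKM in sham and 5.80, 6.18 and 6.38 FPKM in SNI. The groups did not overlap, although the gap between them was small, and the log2 fold change was -0.24 (SE 0.0613, adjusted p = 0.00857, edgeR). Ocln encodes occludin, a membrane protein of the strand. It measured 0.81, 1.16 and 1.17 FPKM in sham and 0.63, 0.82 and 0.77 FPKM in SNI. The lowest sham library fell inside the SNI range, no SNI library reached 1 FPKM, the log2 fold change was -0.58 (SE 0.192, adjusted p = 0.0292, edgeR), and the call was lost in 7 of 16 alternative settings.

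Cldn3 and Cldn4 are claudins of epithelia, and the 2 genes are direct neighbours on chromosome 12 in RefSeq. Cldn4 measured 0.15, 0.12 and 0.15 FPKM in sham, 9.19, 9.50 and 10.03 FPKM in SNI, and 12.64, 11.89 and 13.45 FPKM in SNI + G15. It passed the FPKM minimum only through the injured groups. Its estimated counts summed to 14 over the sham libraries, 958 over the SNI libraries and 1269 over the SNI + G15 libraries. The ratio of SNI to sham was 68.4, with an exact 95% interval of 40.6 to 126 that covers counting error only, and that of SNI + G15 to sham was 90.6 (53.8 to 166). In sham ganglia the gene therefore rested on 4 to 5 counts per library.

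Cldn3 measured 2.44, 2.24 and 3.23 FPKM in sham and 1.96, 1.80 and 1.26 FPKM in SNI. All SNI libraries were below all sham libraries, with a log2 fold change of -0.69 (SE 0.214, adjusted p = 0.0226, edgeR). The call was lost without sham 3 (log2 fold change -0.51, adjusted p = 0.103) and without SNI 3 (-0.52, adjusted p = 0.0714). The deposited counts of Cldn3 and Cldn4 were whole numbers, within 0.005 counts, in only 2 of 9 libraries each, but their sum was whole in 9 of 9, within 0.015 counts. In SNI 3, for example, 34.22 counts for Cldn3 and 333.78 for Cldn4 added to 368. Some reads were thus divided between the pair by estimation, and how many was not given. The sums were 71, 65 and 93 in sham and 360, 367 and 368 in SNI, so the joint rise does not rest on that division, whereas the fall of Cldn3 could depend on it.

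Cldn12 and Tjp1 were higher after injury. Cldn12 is a widely expressed claudin that lacks the usual C-terminal motif for binding PDZ scaffolds. It measured 5.60, 5.52 and 5.41 FPKM in sham and 9.0, 9.32 and 9.33 FPKM in SNI. The groups were far apart relative to their spread, and the log2 fold change was 0.73 (SE 0.0511, adjusted p = 1.22e-06, edgeR). Tjp1 encodes the scaffold ZO-1, which is also found at adherens and gap junctions. It measured 10.70, 9.86 and 10.22 FPKM in sham and 13.64, 14.45 and 14.37 FPKM in SNI. Every SNI library exceeded every sham library, with a log2 fold change of 0.44 (SE 0.0451, adjusted p = 2.07e-05, edgeR).

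**Figure D2:**
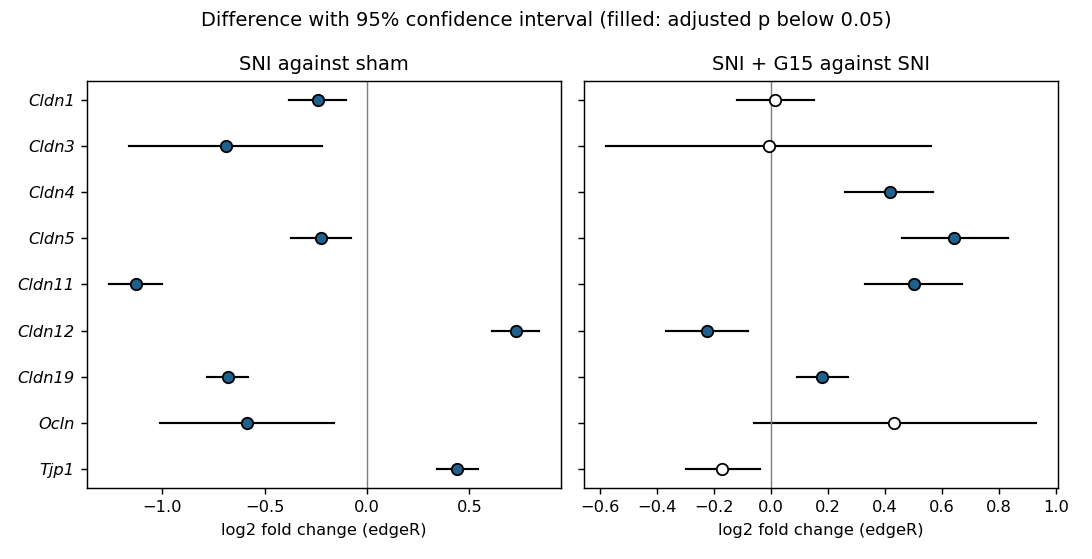
Log2 fold change (horizontal axis) of each gene between SNI and sham (left) and between SNI + G15 and SNI (right), from edgeR fits of 3 against 3 libraries. Points are estimates, lines are 95% confidence intervals, and filled points have an adjusted p below 0.05. Cldn4 is shown only on the right. On the left all 8 points are filled, from -1.13 for Cldn11 to 0.73 for Cldn12, and on the right 5 of 9 are filled, with Cldn5 highest at 0.64.

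The second comparison was between SNI + G15 and SNI and asked how injured ganglia with G15 differed from those without it. It shares the SNI libraries with the first comparison, so the values of the 2 are given side by side and their likeness was not tested. Over all genes, 15.2% were called, 7.98% higher and 7.25% lower, and 38.3% had groups that did not overlap. Of the 9 members, 5 were called, with Cldn4, Cldn5, Cldn11 and Cldn19 higher and Cldn12 lower, and 6 had groups that did not overlap. Cldn4 is counted here although it was chosen partly by its SNI levels, which this comparison reuses. The median log2 fold change of the members was 0.18, against 0.01 over all genes tested.

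Cldn5 had the largest difference. It measured 35.20, 36.00 and 42.33 FPKM after G15, against 25.29, 24.48 and 23.62 FPKM in SNI. The 3 treated libraries were above all SNI libraries, and also above all sham libraries, whose highest value was 30.35 FPKM. The log2 fold change from SNI was 0.64 (SE 0.0805, adjusted p = 0.00134, edgeR), an increase of 56.2%. Without SNI + G15 replicate 3, the highest library, it was 0.55 (adjusted p = 0.000176). Of 15 endothelial markers, 3 were higher and 1 was lower. Their median was 0.10 on the log2 scale, and the summed level was 97.08 to 97.89 FPKM against 87.92 to 89.84 FPKM in SNI. Von Willebrand factor (Vwf) was higher by 0.57, Tie1 by 0.35 and Sox17 by 0.32, and the VEGF receptor Kdr had a log2 fold change of -0.26. Cdh5, at 8.99, 8.54 and 6.77 FPKM after G15 and 7.61 to 7.72 FPKM in SNI, was not called. The part of endothelial cell number in the level of Cldn5 was not tested.

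Cldn11 measured 11.93, 13.63 and 13.71 FPKM after G15, against 9.65, 9.28 and 9.07 FPKM in SNI. All treated libraries were above all SNI libraries and below the lowest sham library at 18.84 FPKM. The log2 fold change was 0.50 (SE 0.0738, adjusted p = 0.00302, edgeR). Cldn19 measured 33.17, 33.72 and 32.80 FPKM after G15 and 29.28 to 29.79 FPKM in SNI, with a log2 fold change of 0.18 (SE 0.0406, adjusted p = 0.0203, edgeR). The 2 groups did not overlap, but the difference was small and its call was lost with DESeq2 (adjusted p = 0.0551), and, by edgeR, without SNI 1 (0.0841), SNI 2 (0.0786) or SNI 3 (0.0878), or without SNI + G15 replicate 2 (adjusted p = 0.0604).

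Of the 12 myelinating Schwann cell markers, 7 were higher and 0 lower after G15. Their median was 0.15 on the log2 scale, with a summed level of 3413 to 3560 FPKM against 3180 to 3240 FPKM in SNI. Of 10 perineurial and arachnoid barrier markers, 5 were higher and 1 lower, and 2 of the 5 reached 1 FPKM in no SNI library. Slc22a8 measured 1.15, 1.38 and 0.76 FPKM after G15 and 0.25 to 0.40 FPKM in SNI, with a log2 fold change of 1.80 (adjusted p = 0.00594, edgeR). The transporter Slc47a1 had a log2 fold change of 1.15 (adjusted p = 0.00665, edgeR). Slc22a8 and Slc47a1 are the 2 markers that reached 1 FPKM in no SNI library. Ntng1, of the same list, went the other way, at 4.58 to 5.02 FPKM after G15 against 6.16 to 6.83 FPKM in SNI. Among 8 fibroblast markers, 7 were higher and 0 lower, 1 of them under 1 FPKM in all SNI libraries, and their summed level was 614.9 to 638.6 FPKM after G15 against 457.9 to 460.4 FPKM in SNI. Most called genes of these lists were higher after G15, as were Cldn11 and Cldn19, but the levels relative to sham differed between the lists. The fibroblast sum was 477.4 to 486.7 FPKM in sham, below its level after G15. The barrier sum was 182.3 to 190.2 FPKM in sham and 227.5 to 245.3 FPKM after G15. Of its 10 tested markers, however, 6 were lower than sham and 3 higher, with a median log2 fold change of -0.45. Among the 6, 2 reached 1 FPKM in no SNI + G15 library. The Schwann cell sum was 5586 to 5705 FPKM in sham and 3413 to 3560 FPKM after G15. Of its 12 markers, 8 were lower than sham and 1 higher. Over all genes tested, 21.9% were lower and 21.4% higher. Cldn11 and Cldn19 also stayed below sham after G15. The part of these lists in the difference was not tested.

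Cldn4 was higher in every SNI + G15 library than in every SNI library, with a log2 fold change of 0.42 (SE 0.0695, adjusted p = 0.00538, edgeR), an increase of 33.4%. Without SNI + G15 replicate 3 it was 0.36 (adjusted p = 0.00584). The SNI levels in this test were also part of the choice of the gene. The sums of Cldn3 and Cldn4 counts were 470, 447 and 486 against 360, 367 and 368 in SNI. Cldn3 itself measured 1.83, 1.93 and 1.18 FPKM after G15, overlapping SNI with the lowest value just below it, and its log2 fold change of -0.01 had a wide 95% interval of -0.58 to 0.56. Of 6 epithelial and mesothelial markers tested, 3 were higher and 2 lower after G15, but 2 of the 3 reached 1 FPKM in no SNI library. The mesothelial protein mesothelin (Msln) measured 1.52, 2.26 and 1.70 FPKM after G15, against 0.08 to 0.13 FPKM in SNI and 0.31 to 0.33 FPKM in sham, and the epithelial adhesion molecule Epcam measured 0.75 to 1.23 FPKM against 0.27 to 0.56 FPKM in SNI. Both genes passed the FPKM minimum only through the SNI + G15 group, so their levels are a description. The keratin Krt7 measured 15.43 to 16.47 FPKM after G15, against 9.70 to 11.88 FPKM in SNI and 5.54 to 6.62 FPKM in sham. The keratin Krt19 was lower, at 1.03 to 1.32 FPKM against 3.10 to 3.67 FPKM in SNI, and Krt18 was at or below 0.24 FPKM in all 9 libraries. Cdh1, also listed, measured 51.78 to 54.54 FPKM after G15, against 57.45 to 59.08 FPKM in SNI and 60.58 to 65.6 FPKM in sham. Between SNI and sham, 2 of the 6 tested markers were higher and 2 lower. Msln, 1 of the 2 lower, was under 1 FPKM in both groups. Whether epithelial or mesothelial cells contribute to Cldn4 was not tested.

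Cldn12 measured 8.25, 8.19 and 7.11 FPKM after G15, below all SNI libraries (9.0 to 9.33 FPKM) and above all sham libraries (5.41 to 5.60 FPKM). Its log2 fold change was -0.23 (SE 0.0622, adjusted p = 0.0423, edgeR), and the call was lost in 11 of 16 alternative settings, with adjusted p from 0.0235 to 0.142 over all of them. Tjp1 measured 13.17, 12.82 and 11.39 FPKM, below all SNI libraries, but its log2 fold change of -0.17 (95% interval -0.30 to -0.04) missed the threshold (adjusted p = 0.0757, edgeR). Cldn1 measured 6.08, 6.01 and 6.27 FPKM, inside the range of SNI, with an interval of -0.12 to 0.15 around a log2 fold change of 0.01. Ocln measured 1.21, 0.99 and 0.76 FPKM and overlapped SNI, with a log2 fold change of 0.43 (95% interval -0.06 to 0.93, adjusted p = 0.208, edgeR).

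The difference between SNI + G15 and SNI varied with gene length over the whole table. When all genes tested were divided into 5 equal parts by length, the median log2 fold change fell from 0.155 in the shortest to -0.105 in the longest. In SNI against sham the corresponding medians were -0.031 and 0.043. Across libraries, the median deviation of the shortest genes minus that of the longest was 0.317 in SNI + G15 replicate 3, against -0.152 to 0.107 in the other 8 libraries. Cldn5 (1416 bases), Cldn3 (1462 bases), Cldn4 (1796 bases) and Cldn11 (1845 bases) were in part 2 from the shortest, Cldn19 in part 3, Cldn1, Cldn12 and Ocln in part 4, and Tjp1 (6901 bases) in part 5. With the trend on length removed, Cldn5 kept a log2 fold change of 0.56 (adjusted p = 0.000514), Cldn11 of 0.46 (0.00249), Cldn4 of 0.37 (0.00642) and Cldn19 of 0.16 (0.0249), by edgeR. Under this setting Cldn12 stood at -0.18 and was not called (adjusted p = 0.058), and Tjp1 stood at -0.06 (adjusted p = 0.402). The cause of the trend was not tested.

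**Figure D3:**
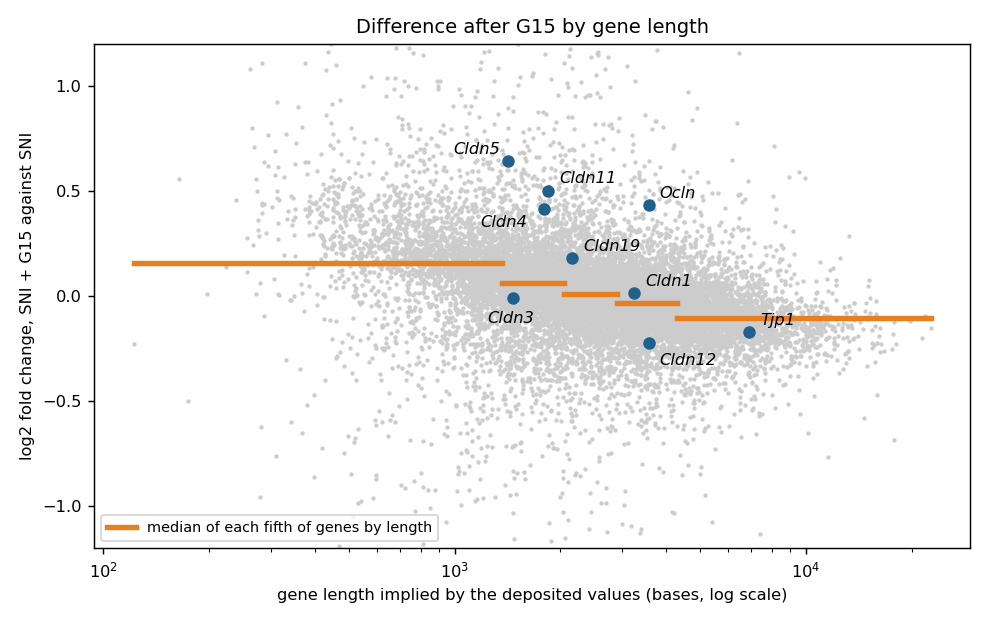
Log2 fold change between SNI + G15 and SNI (vertical axis) against gene length implied by the deposited values (horizontal axis, log scale) for the genes tested (grey points; 169 lie outside the axis), with the 9 genes in blue and the median of each of 5 equal parts of the genes by length in orange. The orange medians step down from 0.155 to -0.105, and Cldn5, Cldn4 and Cldn11 lie above the median of their part.

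The third comparison set SNI + G15 against sham and shares libraries with both others. Over all genes, 43.2% were called, 21.4% higher and 21.9% lower, and 52.9% had groups that did not overlap. Without Cldn4, 7 of 8 members were called, with 3 higher and 4 lower, and 7 had groups that did not overlap. Cldn5 was above sham by 0.40 on the log2 scale (SE 0.0925, adjusted p = 0.00626, edgeR), whereas it had been below sham in SNI without drug. Cldn11 and Cldn19 were below sham, at log2 fold changes of -0.65 (adjusted p = 0.000103) and -0.52 (adjusted p = 4.29e-05) by edgeR. Cldn12 at 0.48 and Tjp1 at 0.24 were above it. Cldn1 had a log2 fold change of -0.25 (adjusted p = 0.0113, edgeR) and Cldn3 of -0.72 (adjusted p = 0.0269, edgeR), and the latter call was lost without sham 3 (adjusted p = 0.114) or SNI + G15 replicate 3 (adjusted p = 0.0711), and Cldn1 with DESeq2 (adjusted p = 0.057). Ocln had a log2 fold change of -0.18 with an interval of -0.63 to 0.27 and was not called.

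The make-up of the claudins followed from these levels. The summed FPKM of the 26 listed claudin genes was 113.4, 119.7 and 122.4 in sham, 99.33, 99.59 and 96.44 in SNI, and 118.9, 119.7 and 125.5 after G15. The 7 claudins described here made up 90.7 to 93.9% of the sum in each library. The share of Cldn19 was 39.2 to 39.9% in sham, 29.7 to 30.4% in SNI and 26.1 to 28.2% after G15. That of Cldn4 was at most 0.132% in sham, 9.25 to 10.4% in SNI and 9.93 to 10.7% after G15. Cldn5 supplied 22.6 to 24.8%, 24.5 to 25.5% and 29.6 to 33.7% in the 3 groups, and was the largest single claudin in every treated library.

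**Figure D4:**
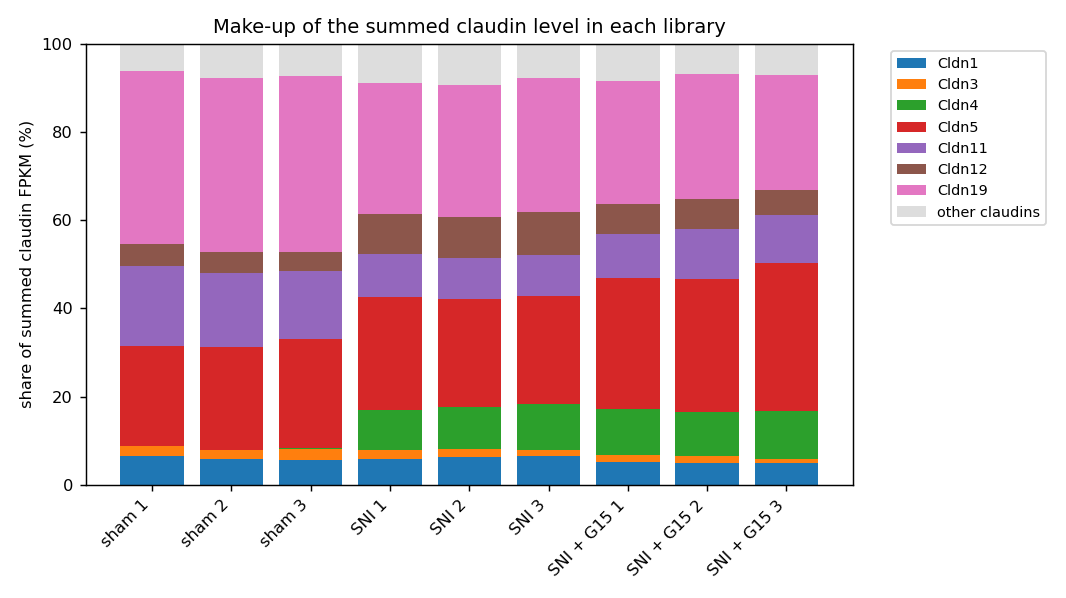
Share of the summed claudin FPKM (vertical axis, percent) contributed by each of the 7 claudins and by all other listed claudins in grey, in each of the 9 libraries. The green band of Cldn4 is at most 0.132% in sham and 9.25 to 10.7% in the 6 injured libraries, and the pink band of Cldn19 narrows from 39.2 to 39.9% in sham to 26.1 to 30.4%.

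Transcript estimates were available for all members. Cldn1, Cldn3, Cldn4, Cldn5 and Cldn11 had a single listed transcript each. The main transcript of Cldn19 held 67.9 to 71.1% of its gene level across all 9 libraries, so both transcripts moved together. Tjp1 had 7 listed transcripts. One of them, XM_006229333.2, held 21.8, 19.5 and 16.9% of the Tjp1 level in sham, 30.6, 34.4 and 29.6% in SNI, and 12.7, 23.3 and 14.3% after G15. Its share was higher in every SNI library than in the other 6 libraries, and its level was 4.17 to 4.98 FPKM in SNI against 1.73 to 2.33 FPKM in sham and 1.63 to 2.99 FPKM after G15. No test was run on transcripts, whose shares are estimates from reads common to several of them. For Cldn12, the transcript NM_001100813.1 measured 4.68, 3.48 and 5.15 FPKM in sham and 5.98, 6.71 and 5.44 FPKM in SNI, without overlap, while its share of the gene overlapped between the groups. The other Cldn12 transcripts were listed at 0 in some libraries, as were 3 of the 4 of Ocln.

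**Figure D5:**
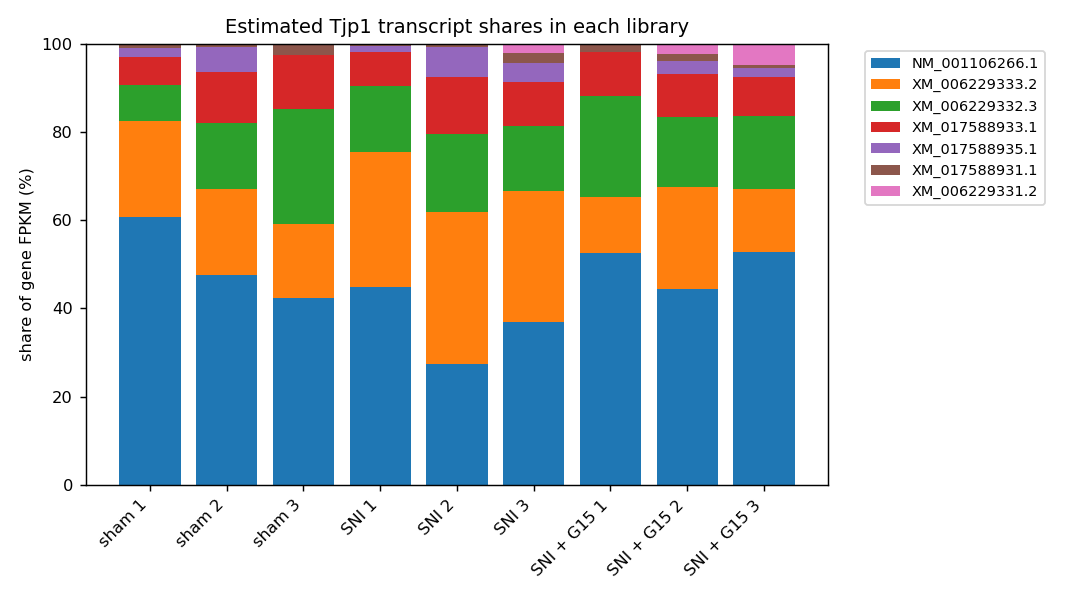
Estimated share of the Tjp1 gene level (vertical axis, percent of FPKM) held by each of its 7 listed transcripts in each of the 9 libraries. The orange band, XM_006229333.2, spans 29.6 to 34.4% in SNI, 16.9 to 21.8% in sham and 12.7 to 23.3% in SNI + G15.

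A list of 52 other tight junction genes (other claudins, tricellular proteins, junctional adhesion molecules, scaffolds and polarity proteins) was examined beside the members, and 36 were tested. Between SNI and sham, 8 were higher and 8 lower, or 44.4% of those tested, near the 45.7% over all genes tested. Of the 8 higher, 3 reached 1 FPKM in no sham library. Among the 29 genes that reached it in both groups 5 were higher and 8 lower, or 44.8% against 45.4% over all such genes. Among the other claudins and claudin-domain genes, 7 of 18 were tested, and Cldn7, Cldn23 and Cldnd1 were higher. Cldn7, an epithelial claudin, had 0, 0 and 1 counts in sham, 30, 15 and 21 in SNI and 20, 24 and 24 after G15, so it too passed the filter only through the injured groups, as did Cldn23 and Ildr2. Cldn23 measured 0.69, 0.84 and 0.84 FPKM in sham and 1.63, 1.69 and 1.41 FPKM in SNI, and the tricellular junction gene Ildr2 measured 0.25, 0.34 and 0.24 FPKM in sham and 1.11, 1.13 and 1.11 FPKM in SNI. Since these 3 genes could enter only by being high after injury, their differences from sham are a description. The adhesion molecule Cxadr was higher by 0.83 (adjusted p = 6.72e-07, edgeR). The polarity genes Pard6b and Patj had log2 fold changes of -0.58 and -0.52.

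Between SNI + G15 and SNI, 3 of the 36 were higher and 2 lower, or 13.9%, near the 15.2% over all genes tested. Esam, an adhesion molecule of endothelial junctions, measured 8.62, 9.50 and 9.51 FPKM after G15 and 7.03 to 7.26 FPKM in SNI, with a log2 fold change of 0.37 (SE 0.0688, adjusted p = 0.00865, edgeR). Lsr, a tricellular protein known from the blood-brain barrier, measured 4.2, 4.31 and 4.19 FPKM against 3.13 to 3.57 FPKM, with a log2 fold change of 0.39 (SE 0.0912, adjusted p = 0.024, edgeR). Ybx3, a factor that binds the ZO-1 scaffold, was higher by 0.16 (adjusted p = 0.0412, edgeR). Patj and its paralogue Mpdz, scaffolds with many PDZ domains, had log2 fold changes of -0.41 (adjusted p = 0.000575) and -0.24 (adjusted p = 0.0105), by edgeR. Patj measured 34.86 to 36.62 FPKM in sham, 25.09 to 26.24 in SNI and 18.44 to 19.27 after G15, without overlap between any of the 3 groups. The calls of Lsr, Mpdz and Ybx3 were lost in 5, 3 and 10 of 16 alternative settings, and those of Patj and Esam in none. None of the 7 other claudins and claudin-domain genes tested was called in this comparison. Against sham, the SNI + G15 group had 10 of the 36 higher and 9 lower, or 52.8%, against 43.2% over all genes tested. The same 3 genes that are high only after injury were among the 10. Among the 31 genes that reached 1 FPKM in both groups, 7 were higher and 9 lower. This was 51.6%, against 42.5% over all such genes. Cxadr stood at 0.91, Ybx3 at 0.60 and Patj at -0.95 on the log2 scale.

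Marveld2, a relative of Ocln that also neighbours it in RefSeq, lay between 0.75 and 1.32 FPKM in all 9 libraries and was not called in any comparison. Tjp3 stayed below the FPKM minimum, with a highest value of 0.81 FPKM.

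The genes whose pattern was most like that of a member were found by Pearson's r of log2(CPM + 1) over the 9 libraries, against the 14304 other genes tested. These points share 3 groups, so r describes mainly the order of the groups. For Cldn19 the leading genes were Prx and Mbp (r = 0.995 each), Grxcr2, Shf and Klf15, and 181 genes had r of at least 0.95. For Cldn4 they were Csrp3, Fcrl2, Clec7a, Cd4 and Reg3b, with r from 0.998 to 0.999, among 809 genes at or above 0.95. For Cldn5 they were Rps10l1 (r = 0.994), LOC102554194, Arl6ip4, Rpl23a and Igfbp7, and only 21 genes reached 0.95. Cldn5 was highest in SNI + G15 replicate 3 (42.33 FPKM), the library where short genes exceeded long ones most (0.317). The part of the length trend in these r values was not tested. For Cldn1 they were Tstd3 (r = 0.983), Ccdc74a, Kcnmb2, LOC679711 and Tasp1, with 22 genes at or above 0.95.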

How the data were processed

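DRG RNA was sequenced by the authors as 150-base read pairs, and gene FPKM was the sum over the transcripts of a gene. The deposited table gives FPKM, TPM and estimated counts per gene and library, and a second deposited table gives FPKM and estimated counts per transcript. Estimated counts need not be whole (70.9 to 72.0% were, within 0.005) and were rounded. The aligner, counter and annotation are not given in the sources used here, although the labels list mouse builds and the transcripts are rat RefSeq entries. The labels' extraction text names macrophages and other kits than the methods, which name DRG tissue, as the labels' tissue field does. Columns named Control were taken as the sham libraries of the same number, since sham was the only group without columns of its name.

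Genes with FPKM of at least 1 in at least 1 library (14305) entered edgeR 4.0.16 quasi-likelihood fits (TMM) of each pair of groups, with R 4.3.3. Intervals are 95% confidence intervals. Alternatives were RLE and upper-quartile factors, DESeq2 1.42.0, limma 3.58.1 (trend) on log2(FPKM + 1) and log2(FPKM + 0.1), all genes with at least 1 count, edgeR's own count filter, 1 fit of all 9 libraries, the replicate number as a block, leaving out each library, and, chosen after seeing the data, removal of a trend on gene length. TPM was used only for the order of levels. Library correlations were 0.9911 to 0.9944 within and 0.9651 to 0.99 between groups. The methods take tissue of 3 rats per group, but a supplementary list of animals counts more rats for RNA-Seq than there are libraries, so whether a library pools animals is not clear, and p-values measure only the spread between libraries. Gene symbols and neighbours were read from RefSeq, which matched 18599 of the 20194 genes. Named genes were all members, up to 6 genes of the junction list per comparison with the largest called change, all other claudins called, and the 5 genes most like Cldn1, Cldn4, Cldn5 and Cldn19. The members and all lists were chosen with earlier results of these data known. Examples from the marker lists were chosen after their values were seen.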

Additional observations from a re-analysis of the deposited data

How the results depend on the processing

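Directions of the called members held under every alternative run. Between SNI and sham, the number of members called was 5 to 8 when 1 library was left out (5 without sham 3 or without SNI 3). Between SNI + G15 and SNI, 3 members were called instead of 5 with DESeq2 and 3 with the replicate block, and 3 to 5 with 1 library left out (3 without SNI 1, SNI 2, SNI 3 or SNI + G15 replicate 2). Cldn4, Cldn5 and Cldn11 kept their calls in this comparison under all 16 alternatives. Of the junction list, 3 genes instead of 5 were called with DESeq2, 3 with the length trend removed, 2 with the replicate block, and 3 to 8 with 1 library left out. Over all genes, 1292 instead of 2179 were called with the replicate block, and 893 to 2333 with 1 library left out. Between SNI + G15 and sham, 12 to 18 of the junction list were called instead of 19 with 1 library left out (12 without sham 1), and Cldn1 lost its call with DESeq2 (adjusted p = 0.057). The uncalled differences of Cldn1 and Cldn3 between SNI + G15 and SNI changed sign, ranging from -0.0218 to 0.0441 and from -0.18 to 0.18 with 1 library left out. The cause of these differences was not tested.

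Replicate numbers are shared between groups, but same-numbered libraries did not deviate together (correlations of -0.035, 0.011 and 0.035 for SNI and sham, -0.119, -0.013 and -0.024 for SNI + G15 and SNI, and 0.069, -0.095 and -0.128 for SNI + G15 and sham). No pairing by number was thus seen, but 3 libraries per group are too few to exclude one. With the replicate block, the injury comparison called 8 members, and treated against sham ganglia gave 6, because Cldn3 lost its call (adjusted p = 0.0613, edgeR). TPM gave the same rank for all 9 genes in each group. Depth limits Ocln and Cldn3 and, in sham, Cldn4.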
